A study of Mus musculus with 4 samples.

Results

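A set of 10 genes of antigen processing was followed in single microglia from irradiated and sham-treated mouse brain, made up of Tap1, Tap2, Tapbp, Tapbpl, Erap1, Psmb8, Psmb9, Psmb10, Psme1 and Psme2. They were taken by name from the pathway, with earlier results of these data known, and all 10 of 10 were found among the 27998 genes of the deposited count matrices. The cells came from C57BL/6 mice given a single whole-brain dose of 8 Gy at postnatal day 21, or sham treatment, and no genetic change is named for any group. Microglia are the tissue macrophages of the brain; they were taken 6 h and 1 week later and their RNA was read cell by cell in droplets on the 10x Genomics Chromium system. Sham and irradiated mice at the 2 times make 4 groups, and each is a single library made from 4 pooled mice. The labels name the brain as source while the design text speaks of the hippocampus, and neither gives the sex of the mice. As no group has a second library, nothing below could be tested against replicates, every interval is a 95% interval for counting error only, and differences between mice or preparations cannot be told apart from those between groups.

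Cells show samples of their own proteins to T cells as short peptides held in class I molecules. The proteasome cuts proteins into peptides, the TAP transporter carries them into the endoplasmic reticulum, peptidases trim them there, and a loading complex built around tapasin places them in the groove of the class I molecule. Interferons are known to induce most of these genes, and the induced catalytic subunits replace their constitutive counterparts to form the immunoproteasome.

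On the mouse build mm10, 5 of the 10 genes lie in the major histocompatibility region of chromosome 17, which also holds H2-K1, a class I heavy chain gene. Tap1 (17:34187553-34197225, plus strand) and Psmb9 (17:34181987-34187764, minus strand) stand head to head and their annotated 5′ ends overlap by 212 bases. Psmb8 (17:34197721-34201454) and Tap2 (17:34203527-34216321) follow on the plus strand, and Tapbp lies apart at 17:33915899-33929292. Psme1 (14:55578123-55581529, plus strand) and Psme2 (14:55587441-55591113, minus strand) are neighbours on chromosome 14. Erap1 is at 13:74639568-74693201, Tapbpl at 6:125223933-125231860 and Psmb10 at 8:105935735-105938444.

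Promoter windows of 300 bases from RefSeq (GRCm38.p6), running from 250 bases before the gene start, were matched for 8 of the 10 genes and for the 3 genes used as references. They were searched on both strands for GAAA followed after any 2 bases by GAAA (the GAAA pair below), the core of the element bound by interferon-activated factors, for TTCNNNGAA, the core of a STAT site, for GGGCGG, the GC box, and for a p53 half-site and an NF-kB site. Sites of the first 3 motifs are shown for genes that the results below describe, with Isg15 for comparison; a printed site is an example and does not set its gene apart. Capitals mark the matched letters, each site is written 5′ to 3′ on the strand of its gene, and a match on the other strand therefore reads as the reverse complement.
Isg15 (chr4:156200871-156200900, minus strand, 3 overlapping GAAA pairs): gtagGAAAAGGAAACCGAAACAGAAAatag
Psme1 (chr14:55578493-55578522, plus strand, GAAA pair): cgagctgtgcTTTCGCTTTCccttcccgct
Erap1 (chr13:74639839-74639868, plus strand, GAAA pair): ccaccttcacTTTCACTTTCggtcccgggc
Psmb8 (chr17:34198088-34198117, plus strand, TTCNNNGAA): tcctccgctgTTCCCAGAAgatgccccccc
Tap1 (chr17:34187368-34187397, plus strand, GGGCGG): cagactgaggccCCGCCCcatcatcgcgca
Of 32851 promoter windows of the same length, 3.44% held the GAAA pair, 8.30% TTCNNNGAA and 35.7% GGGCGG. Of the 8 matched genes, 2 held the GAAA pair (Psme1 and Erap1), 1 TTCNNNGAA (Psmb8) and 6 the GC box (Erap1, Psme1, Psme2, Tapbp, Psmb9 and Tap1). The p53 half-site (8.36% of windows) was matched in Erap1 and in Cdkn1a, and the NF-kB site (8.46% of windows) in 0 of the 8 and in H2-K1. The RefSeq starts of Psmb9 and Tap1 are separated by a stretch of 225 bases that both genes share as upstream sequence. It held the single GC box shown, which is counted for both genes, and 0 matches to the other motifs, which says only that these exact letters are not in that stretch.

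The 4 libraries held between 1623 and 2670 barcodes and between 5706955 and 9760928 UMIs, where a UMI tags 1 captured transcript. After filters 8324 cells remained, and the values below are from 8213 of them, all but 95 cells of an unnamed cluster and 16 monocyte-like cells. The unnamed cluster held 15 sham and 69 irradiated cells at 6 h, and 4 sham and 7 irradiated cells at 1 week. It had all 9 microglia markers but also raised border macrophage and oligodendrocyte markers. Pf4, Ms4a7 and Lyve1 were among its 10 leading genes. At 6 h the compared cells numbered 2626 sham and 1901 irradiated, and at 1 week 1558 sham and 2128 irradiated, with all 9 microglia markers detected in each library. One cluster among them had Lyz2, a marker of the monocyte list, among its 10 leading genes, so the compared cells are named by this rule rather than as pure microglia. As a check of the labels, Cdkn1a, the p53 target that arrests the cell cycle, stood at 52.3 CPM (UMIs of the gene scaled to the UMIs of all compared cells of the library) in sham and 2981 CPM in irradiated cells at 6 h, and at 56.4 and 2215 CPM at 1 week. Isg15, an interferon-induced ubiquitin-like protein, stood at 62.0, 169.1, 30.7 and 32.6 CPM for sham and irradiated cells at 6 h, then sham and irradiated cells at 1 week. H2-K1 stood at 395.3, 1213, 337.9 and 385.3 CPM in the same order, which is kept below. The 2 sham libraries were not alike in interferon genes: 17 of 25 listed interferon response genes were at least 1.5-fold lower in the sham library at 1 week than in that at 6 h. Of 8445 distinct barcode sequences, 41 occurred in more than 1 library.

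Summed over the 10 genes, the level hardly differed between libraries, with 1228, 1246, 1232 and 1193 CPM. Within this sum single genes moved apart: Tap1 was higher after irradiation at both times, while Psmb8 and Psmb10 were lower at both. At 6 h, 1 of the 10 genes was at least 1.5-fold higher in the irradiated library (Tap1; 9.02% of 9890 measured genes were) and 0 were at least 1.5-fold lower (9.13% of measured genes). A gene counted as measured from 50 UMIs over both libraries, which all 10 reached in every comparison. At 1 week Tap1 was again the single gene past 1.5-fold higher (3.98% of 9493 measured genes) and 0 were lower (3.1%). It was thus past 1.5-fold at both times over the sham of the same time, as were 1.33% of 9417 genes measured at both. The median log2 fold of the 10 genes was 0.06 at 6 h and 0.01 at 1 week, against -0.06 and 0.04 over all measured genes. Levels are compared between libraries and not between genes.

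**Figure D1:**
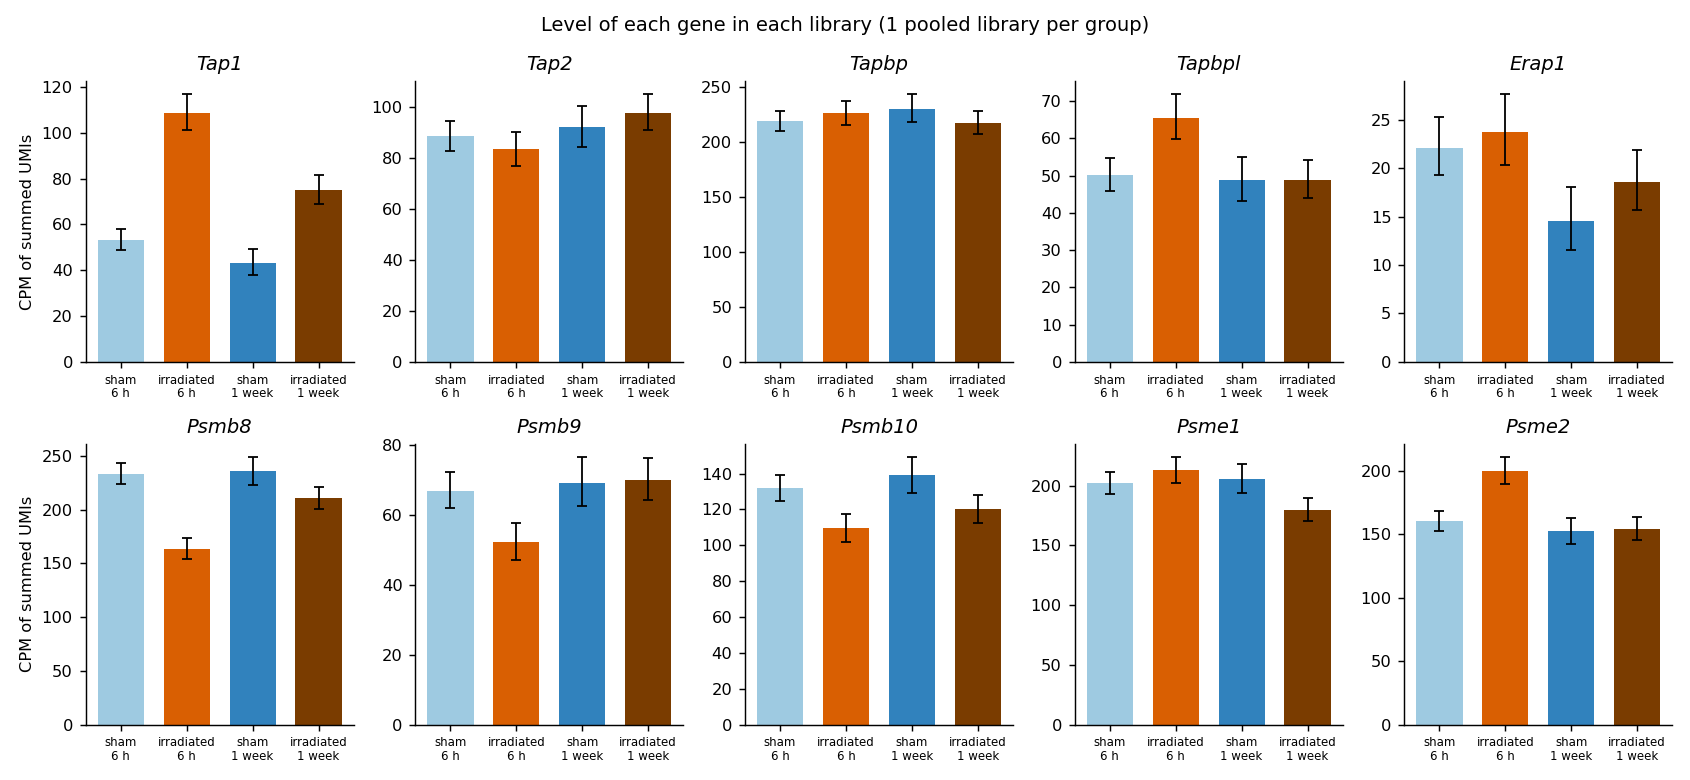
Level of each of the 10 genes in the 4 libraries, as CPM of summed UMIs (vertical axis) with exact Poisson 95% intervals as error bars, each bar 1 pooled library. Tap1 is highest in the 2 irradiated libraries (108.8 and 75.0 CPM), and Psmb8 is lowest in them (163.8 and 210.9 CPM).

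Tap1 and Tap2 encode the paired subunits of the peptide transporter. Tap1 stood at 53.3 CPM (515 UMIs), 108.8 CPM (778 UMIs), 43.3 CPM (241 UMIs) and 75.0 CPM (573 UMIs). Both irradiated libraries lay above both sham libraries, as they did for 14.7% of 9417 measured genes. None of the 4 intervals overlapped an interval of the opposite treatment, and the share of all genes for which this holds was not computed. The log2 fold over the sham library of the same time was 1.03 (0.87 to 1.19) at 6 h, a 2.04-fold higher level, and 0.79 (0.57 to 1.02) at 1 week, a 1.73-fold higher level. Against the sham library of the other time it was 1.33 (1.12 to 1.54) for the irradiated library at 6 h and 0.49 (0.32 to 0.67) for that at 1 week, and the latter is no longer past 1.5-fold. Asked over each of the 2 sham libraries, then, 0 of the 10 genes were past 1.5-fold higher in both irradiated libraries (0.828% of measured genes). These comparisons share their sham libraries and are not independent of each other. The sham libraries themselves differed by -0.30 (-0.53 to -0.08) for Tap1, 1 week over 6 h. Without the 551 cells of a cluster led by Rsad2 and Ifit genes, which are interferon-induced, that sham difference was -0.05 (-0.30 to 0.19), while the irradiated over sham folds were 1.15 and 0.80.

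Tap2 did not share this pattern, at 88.5, 83.4, 92.2 and 97.7 CPM. Its log2 fold was -0.09 (-0.24 to 0.07) at 6 h and 0.08 (-0.08 to 0.25) at 1 week, both intervals including 0. The ratio of Tap1 to Tap2 UMIs was therefore 0.602, 1.31, 0.470 and 0.768. It was higher in each irradiated library than in the sham library of the same time.

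**Figure D2:**
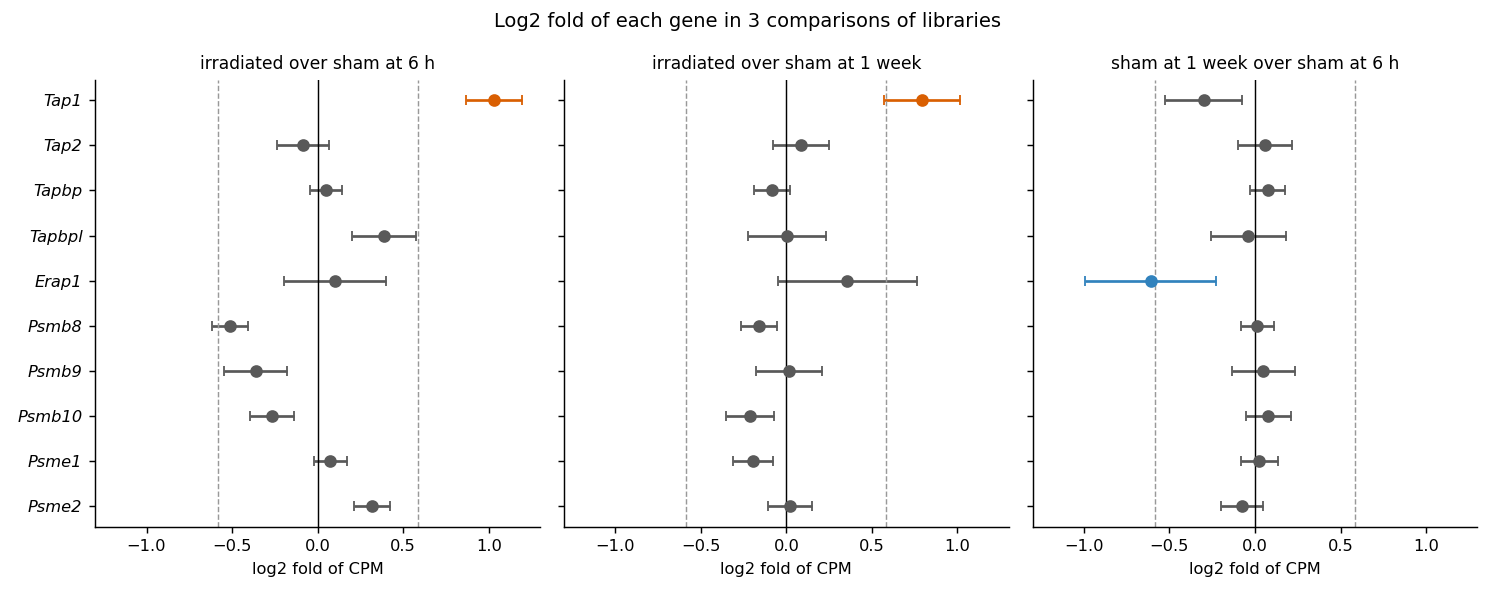
Log2 fold of CPM (horizontal axis) of each gene with its exact conditional binomial 95% interval, for irradiated over sham at 6 h, irradiated over sham at 1 week, and sham at 1 week over sham at 6 h. Dashed lines mark 1.5-fold; the points past them are Tap1 at 6 h (1.03) and 1 week (0.79) and Erap1 between the sham libraries (-0.61), which is within 1.5-fold with edgeR's TMM, with median of ratios and without the cluster led by Rsad2 and Ifit genes.

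Tapbp encodes tapasin, which bridges the transporter and the class I molecule, and stood at 218.7, 226.2, 230.2 and 217.2 CPM. The 4 values span little more than their own intervals, and the log2 folds were 0.05 (-0.05 to 0.14) at 6 h and -0.08 (-0.19 to 0.02) at 1 week. Tapbpl encodes the tapasin-related protein TAPBPR, a peptide editor outside the loading complex, and stood at 50.2, 65.6, 48.9 and 49.0 CPM. The irradiated library at 6 h was alone in being high, with a log2 fold of 0.39 (0.20 to 0.57) against 0.00 (-0.23 to 0.23) at 1 week. The counting interval of the difference between those 2 folds was 0.09 to 0.67. The protein-coding gene Vamp1 covers all of Tapbpl on the opposite strand, and whether the counting used strand is not given in the sources used here. Zbtb22, also protein-coding, overlaps Tapbp by 3422 bases on the same strand.

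Erap1, the aminopeptidase that trims peptides in the endoplasmic reticulum, was the least counted of the 10, with 214, 170, 81 and 142 UMIs, or 22.1, 23.8, 14.6 and 18.6 CPM. The sham library at 1 week was the low one. Its log2 fold over the sham library at 6 h was -0.61 (-0.99 to -0.23), which made Erap1 the 1 gene of the 10 past 1.5-fold lower between the sham libraries (4.83% of 9706 measured genes; 0 of 10 were higher, beside 2.95%). That value lies near the threshold, and it was within 1.5-fold with edgeR's TMM scaling (-0.58), with median of ratios (-0.56) and without the cluster led by Rsad2 and Ifit genes (-0.55). Irradiated over sham, its log2 fold was 0.10 (-0.20 to 0.40) at 6 h and 0.35 (-0.05 to 0.77) at 1 week. Over the sham library of the other time it was 0.71 (0.32 to 1.11) for the irradiated library at 6 h, the same sign as over its own sham. For the irradiated library at 1 week it was -0.25 (-0.57 to 0.06), the opposite sign, with both intervals including 0. Tap1 and Erap1 were thus the 2 genes past 1.5-fold higher at 6 h over the sham library at 1 week (11.9% of measured genes) and 0 were lower (9.35%). At 1 week over the sham library at 6 h, 0 of 10 were past it in either direction (3.82% higher and 4.75% lower).

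The catalytic subunits of the immunoproteasome were lower at 6 h, where lower levels were common among all genes. The median absolute log2 fold of all measured genes was 0.249 at 6 h, and 25.3% of them had intervals below 0. Psmb8, also known as LMP7, stood at 233.6 CPM (2257 UMIs), 163.8 CPM (1171 UMIs), 235.9 CPM (1313 UMIs) and 210.9 CPM (1611 UMIs). The sham libraries were alike and both irradiated libraries lay below them, as they did for 16.7% of 9417 measured genes. Its log2 fold was -0.51 (-0.62 to -0.41) at 6 h and -0.16 (-0.27 to -0.06) at 1 week, and the counting interval of the difference between the times was -0.50 to -0.20. Against the other sham library the values were -0.53 and -0.15. None of these passed 1.5-fold, but at 6 h the fold without the cluster led by Rsad2 and Ifit genes was -0.63 (-0.75 to -0.52), which does.

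Psmb9, or LMP2, stood at 67.1, 52.2, 69.4 and 70.2 CPM, so the irradiated library at 6 h was alone in being low. The log2 fold was -0.36 (-0.55 to -0.18) at 6 h and 0.02 (-0.17 to 0.21) at 1 week. Psmb10, or MECL-1, stood at 131.7, 109.5, 139.1 and 120.2 CPM, with both irradiated libraries below both sham libraries. Its folds were -0.27 (-0.40 to -0.14) at 6 h and -0.21 (-0.35 to -0.07) at 1 week. The size of the Psmb10 fold at 6 h is near the median absolute fold of all measured genes. Across the 10 genes, both irradiated libraries lay above both sham libraries for 1 (Tap1; 14.7% of 9417 measured genes) and below them for 2 (Psmb8 and Psmb10; 16.7%), shares close to the background.

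The constitutive subunits that these 3 replace differed between irradiated and sham cells of the same time by less than their counting intervals. Psmb5 stood at 137.5, 141.0, 135.6 and 139.2 CPM, and its log2 folds were 0.04 at both times. For Psmb6 and Psmb7 the folds were 0.03 and -0.03 at 6 h and 0.01 and -0.01 at 1 week. All 6 intervals of the 3 genes over the sham of the same time included 0. Over the other sham library Psmb7 was at -0.18 (-0.34 to -0.02) at 6 h and 0.14 (0.001 to 0.27) at 1 week. Between the sham libraries it was at 0.15 (0.0005 to 0.29). The intervals of Psmb5 and Psmb6 included 0 in these comparisons too. The ratio of induced to constitutive UMIs was therefore lower in irradiated cells at 6 h in each pair, though for the last pair the intervals overlapped (1.20 to 1.42 and 1.00 to 1.23). For Psmb8 over Psmb5 it was 1.70 (1.59 to 1.82), 1.16 (1.07 to 1.27), 1.74 (1.59 to 1.90) and 1.52 (1.40 to 1.64). For Psmb9 over Psmb6 it was 0.342, 0.260, 0.370 and 0.372, and for Psmb10 over Psmb7 it was 1.31 in sham and 1.11 in irradiated cells at 6 h. At 1 week the last ratio was within 1.12 to 1.39 in sham and was 1.09 (0.988 to 1.19) in irradiated cells. Whether the protein complexes changed was not measured.

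Tap1 and Psmb9, which share their upstream stretch, moved in opposite directions at 6 h. The ratio of their UMIs was 0.795 (0.707 to 0.894) in sham and 2.09 (1.84 to 2.37) in irradiated cells at 6 h. At 1 week the same ratio was 0.624 (0.529 to 0.735) and 1.07 (0.949 to 1.20), so the irradiated library was higher at both times.

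**Figure D3:**
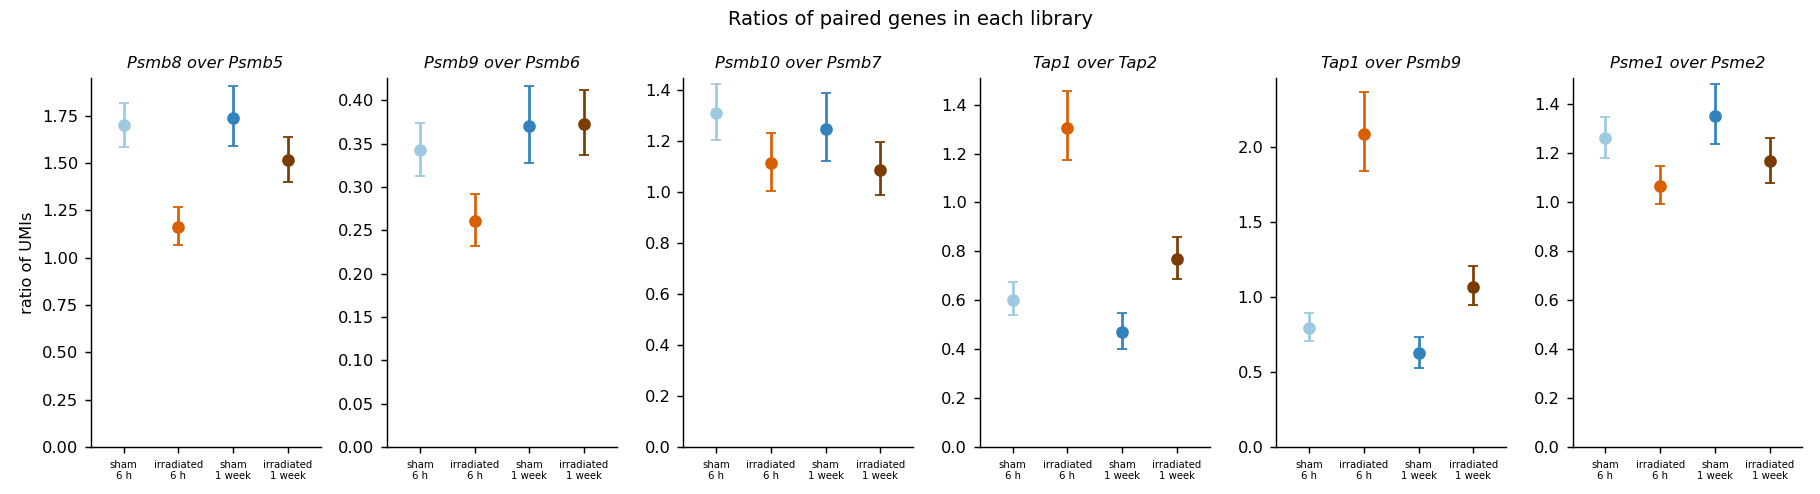
Ratio of the UMIs of paired genes (vertical axis) in each library with its 95% counting interval: the 3 induced subunits over the constitutive ones they replace, then Tap1 over Tap2, Tap1 over Psmb9 and Psme1 over Psme2. The irradiated library at 6 h is lowest for Psmb8 over Psmb5 (1.16) and highest for Tap1 over Psmb9 (2.09).

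Psme1 and Psme2 encode the alpha and beta subunits of PA28, the interferon-inducible cap that opens the proteasome. Psme1 stood at 202.2, 212.9, 205.9 and 179.9 CPM, with log2 folds of 0.07 (-0.02 to 0.17) at 6 h and -0.19 (-0.31 to -0.08) at 1 week. Psme2 stood at 160.5, 200.1, 152.4 and 154.5 CPM, and the irradiated library at 6 h was alone in being high. Its log2 fold was 0.32 (0.21 to 0.42) at 6 h and 0.02 (-0.11 to 0.15) at 1 week. Psme2 is uncertain in 1 respect, since the near-identical gene Psme2b on chromosome 11 can take or lose reads, and Psme2b was counted at 29.3, 43.6, 40.6 and 30.1 CPM. Without the cluster led by Rsad2 and Ifit genes the Psme2 fold at 6 h was 0.17 (0.05 to 0.29). The ratio of Psme1 to Psme2 UMIs was 1.26, 1.06, 1.35 and 1.16, lower in each irradiated library than in its sham.

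By their intervals, 3 of the 10 genes were above 0 at 6 h (Tap1, Tapbpl and Psme2; 19.5% of measured genes were) and 3 below (Psmb8, Psmb9 and Psmb10; 25.3%). At 1 week 1 was above (Tap1; 14% of measured genes) and 3 were below (Psmb8, Psmb10 and Psme1; 10.6%). Between the sham libraries 0 were above (10.1%) and 2 below (Tap1 and Erap1; 17.1%).

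The rest of the proteasome stayed within 1.5-fold. Of the 11 other subunits of the 20S core, the 18 of the 19S cap and the 8 other activators, inhibitors and assembly factors, 0 passed 1.5-fold in either direction at 6 h, at 1 week or between the sham libraries. Their median log2 folds at 6 h were 0.00, 0.04 and 0.03. The 19S subunit Psmd7 was the one farthest from 0, at 0.37 (0.24 to 0.49). Among 12 chaperones and peptidases that serve class I loading, 1 was past 1.5-fold higher at 6 h (Npepps, a cytosolic aminopeptidase, at 0.80) and 1 lower (Ide, the insulin-degrading enzyme, at -0.74). Each is 8.33% of that list, near the 9.02% of all measured genes that were higher and the 9.13% that were lower.

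Of 10 measured class I genes 4 were past 1.5-fold higher (40%, beside 9.02% of all measured genes) and 0 lower at 6 h. Their median log2 fold was 0.44, with H2-Q7 at 2.25 (1.96 to 2.55) and H2-K1 at 1.62 (1.56 to 1.67). Reads of the near-identical class I genes may be split among them. At 1 week 2 of 10 were higher (20%, beside 3.98% of all measured genes), and H2-K1 was at 0.19 (0.11 to 0.27). Of 25 interferon response genes 14 were higher (56%) and 2 lower (8%, beside 9.13% of all measured genes) at 6 h. Their median was 0.92, with Isg15 at 1.45. At 1 week 9 of 23 measured were higher (39.1%, beside 3.98% of all measured genes) and 1 lower, with a median of 0.45. Against the sham library at 6 h, however, 0 of 25 were higher and 15 lower (60%) in the irradiated library at 1 week. Of all measured genes 3.82% were higher and 4.75% lower in that comparison. Among 19 measured genes of interferon signalling and class I transcription, 2 were higher at 6 h (Irf7 and Stat2) and 0 lower, with a median of -0.15. These 2 are 10.5% of that list, near the 9.02% of all measured genes. Irf1, a transcription factor known to act on Psmb9 and Tap1, was at -0.53 (-0.79 to -0.28) at 6 h. Ifng, which encodes interferon gamma, had 0 UMIs in all 4 libraries, and Nlrc5, the class I transactivator, had 15, 29, 2 and 7 UMIs, too few to be counted as measured. Of 18 measured p53 targets 16 were higher (88.9%) and 0 lower at 6 h.

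To compare shares of cells, each cell was thinned at random to 2000 UMIs, which left out 84, 50, 189 and 102 shallower cells. Nearly all cells carried some UMI of the 10 genes, namely 89.6%, 89.3%, 90.1% and 89.9% of cells. A Tap1 UMI was found in 9.56% (8.44 to 10.8), 19.4% (17.7 to 21.3), 8.55% (7.12 to 10.2) and 13.8% (12.3 to 15.3) of cells. Both irradiated libraries were above both sham libraries. A Psmb8 UMI was found in 36.9% (35.0 to 38.8), 26.4% (24.4 to 28.4), 36.2% (33.7 to 38.8) and 33.3% (31.3 to 35.4) of cells. The order at 1 week depended on depth, with 28.3% of sham and 27.5% of irradiated cells at 1500 UMIs. At 3000 UMIs the shares were 49.1% (46.0 to 52.1) of sham and 49.8% (47.2 to 52.4) of irradiated cells. A Psmb9 UMI was found in 9.18% (7.91 to 10.6) of irradiated cells at 6 h, where the sham interval was 10.8 to 13.3, and in 12.5% and 13.5% of cells at 1 week. Without thinning the shares with a Tap1 UMI were 16.9%, 31.1%, 14.1% and 23.4%. Free RNA in the droplets adds UMIs to cells that do not express a gene, and no cell class here is known to lack these genes. As a gauge, the microglial gene P2ry12 was seen in 3 of 16 monocyte-like cells, a share of 18.8% (4.05 to 45.6) at a median of 2683.5 UMIs. The compared cells, at a median of 3525 UMIs, had it in 99.2%.

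Across cells, the sum of the 10 genes went with Isg15, though not every gene did in every library. With each cell thinned to 2000 UMIs, cells with an Isg15 UMI carried more UMIs of the 10 genes than cells without in each library. The log2 ratio of the summed level was 0.58 (0.45 to 0.70), 1.05 (0.94 to 1.15), 0.32 (0.06 to 0.57) and 0.35 (0.16 to 0.54). At 1500 UMIs the interval of the sham library at 1 week included 0, at 0.24 (-0.12 to 0.57). The irradiated library at 6 h had the steepest series: cells with 0, 1, 2 to 4 and 5 or more Isg15 UMIs carried 2218, 3187, 4881 and 7447 UMIs of the 10 genes per 1000 cells, over 1663, 91, 59 and 38 cells. At 1 week few cells had 2 to 4 or at least 5 Isg15 UMIs, namely 8 and 4 of the sham and 13 and 3 of the irradiated cells.

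Single genes differed in how much they went with Isg15. In the irradiated library at 6 h the log2 ratio of cells with over cells without an Isg15 UMI was highest for Psmb9 at 1.63 (1.12 to 2.12) and Psme2 at 1.52 (1.27 to 1.77). Tap1 had 1.28 (0.92 to 1.62), Psmb10 1.14 (lower bound 0.77), Psmb8 1.06 (0.74 to 1.36) and Psme1 1.00 (0.72 to 1.27). Tap2 had 0.79 (0.33 to 1.21) and Tapbp 0.63 (0.34 to 0.90). Tapbpl, at 0.10 (-0.55 to 0.69), and Erap1, at 0.76 (-0.18 to 1.60), had intervals that include 0. In the sham library at 6 h the intervals of Tapbp, Tapbpl, Psmb10 and Erap1 included 0. At 1 week those of all genes but Tap1 did, except Psme1 in irradiated cells at 0.76 (0.30 to 1.19). Some ratios at 1 week lay above 0 and some below, with Psmb10 at -0.49 (-1.63 to 0.45) in sham and 0.56 (-0.04 to 1.11) in irradiated cells. For Tap1 the values of the 4 libraries were 1.65, 1.28, 1.47 and 0.92, each with an interval above 0 at 2000 UMIs. At 1500 UMIs the Tap1 interval included 0 in both libraries at 1 week, with 1.39 (-0.09 to 2.57) in sham and 0.81 (-0.12 to 1.62) in irradiated cells. At 3000 UMIs it included 0 in the irradiated library at 1 week, at 0.57 (-0.05 to 1.13).

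**Figure D4:**
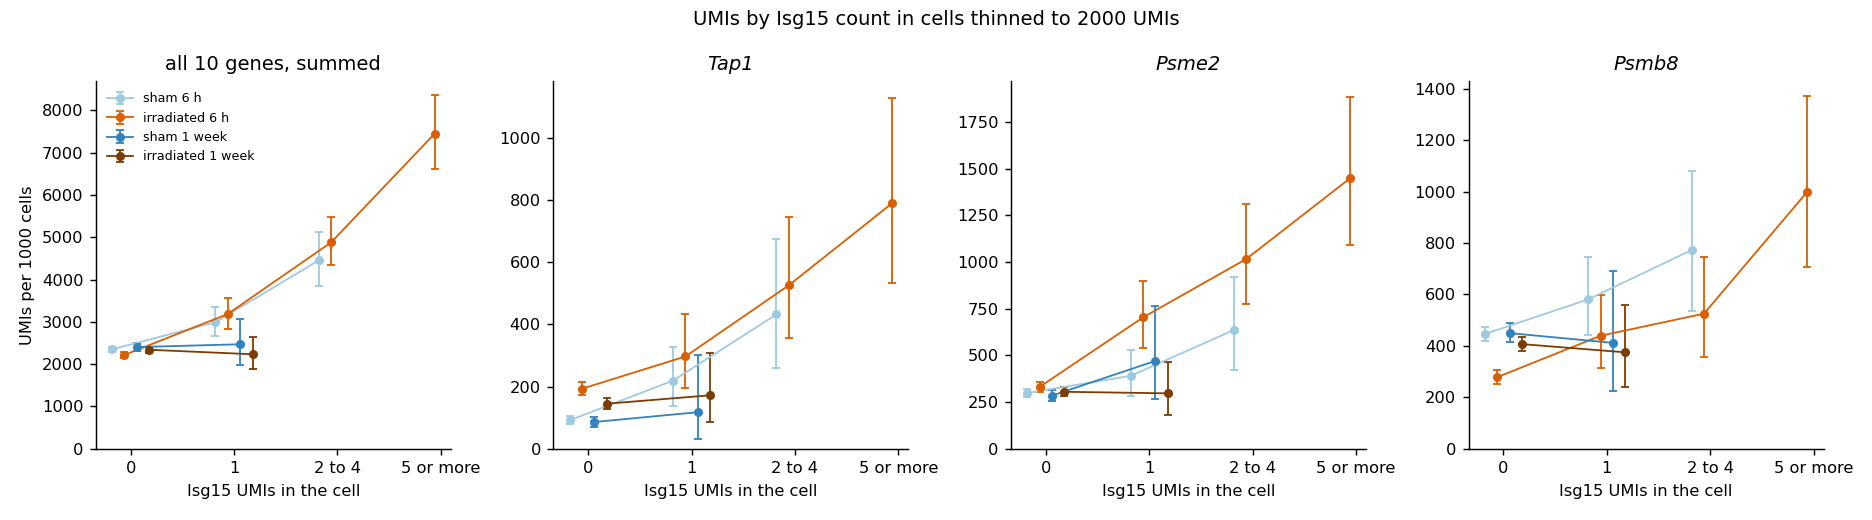
UMIs per 1000 cells (vertical axis) of the 10 genes summed, Tap1, Psme2 and Psmb8 in cells thinned to 2000 UMIs, by the number of Isg15 UMIs in the cell, with exact Poisson 95% intervals; bins of under 20 cells are not drawn. In cells with no Isg15 UMI, Tap1 is higher in the irradiated libraries (193.0 and 144.9) than in the sham libraries (91.5 and 86.2), and Psmb8 is lowest in the irradiated library at 6 h (278.4).

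The difference between irradiated and sham libraries was also read within cells that had no Isg15 UMI. In those cells the Tap1 log2 fold was 1.08 (0.82 to 1.33) at 6 h and 0.75 (0.43 to 1.08) at 1 week. These values are bound to lie near those over all cells, as most cells had no Isg15 UMI. At 6 h such cells were 2382 of 2542 sham and 1663 of 1851 irradiated cells. At 1 week they were 1323 of 1369 and 1946 of 2026. In cells with an Isg15 UMI the Tap1 fold was 0.70 (lower bound 0.17) at 6 h and 0.20 (-0.90 to 1.39) at 1 week. The part of interferon in the Tap1 difference was not tested. In cells without an Isg15 UMI at 6 h, Psmb8 was at -0.68 (-0.84 to -0.52), Psmb9 at -0.64 (-0.94 to -0.34) and Psmb10 at -0.40 (-0.60 to -0.20). Psme2 was at 0.15 (-0.01 to 0.31) in cells without and at 1.00 (0.61 to 1.41) in cells with an Isg15 UMI. In cells with an Isg15 UMI the 3 catalytic subunits had intervals that include 0 and did not share a sign, with Psmb8 at -0.21 (-0.60 to 0.19), Psmb9 at 0.15 (-0.51 to 0.82) and Psmb10 at 0.41 (-0.11 to 0.94). At 1 week, in cells without an Isg15 UMI, Psmb8 was at -0.14 (-0.30 to 0.01), Psmb9 at 0.13 (-0.15 to 0.42) and Psmb10 at -0.22 (-0.42 to -0.01). A cell without a UMI at this depth may still express Isg15.

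The relation to H2-K1 was weaker and differed by time. The log2 ratio of the summed 10 genes in cells with over cells without an H2-K1 UMI was 0.18 (0.10 to 0.25) and 0.37 (0.26 to 0.48) at 6 h. At 1 week it was 0.01 (-0.09 to 0.11) in sham and -0.02 (-0.10 to 0.06) in irradiated cells. At 6 h after irradiation, cells with 5 or more H2-K1 UMIs carried 3434 UMIs of the 10 genes per 1000 cells, against 2005 in cells with 0. Psme2 went from 305.7 to 669.0 and Tap1 from 180.1 to 327.6 UMIs per 1000 cells between the same bins.

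With Cdkn1a the intervals of the sum lay above 0 in the 6 h libraries alone, and there they included 0 at other thinning depths. The log2 ratio of the sum in cells with over cells without a Cdkn1a UMI was 0.16 (0.01 to 0.31), 0.30 (0.05 to 0.55), -0.10 (-0.31 to 0.10) and 0.08 (-0.04 to 0.20). With thinning to 1500 UMIs both sham libraries changed sign, to -0.14 (-0.34 to 0.06) at 6 h and to 0.14 (-0.11 to 0.38) at 1 week, both intervals including 0. In the irradiated library at 6 h the ratio was 0.19 (-0.01 to 0.39) at 1500 UMIs and 0.21 (-0.13 to 0.57) at 3000. The sham library at 6 h had 0.09 (-0.03 to 0.21) at 3000 UMIs. At 6 h after irradiation 68 cells lacked a Cdkn1a UMI. Tap1 in the irradiated library at 1 week stood at 120.6, 91.2, 155.8 and 177.1 UMIs per 1000 cells in cells with 0, 1, 2 to 4 and 5 or more Cdkn1a UMIs. The interval of the last bin (148.9 to 209.1) lies above that of cells with 1 UMI (59.6 to 133.7) but overlaps that of cells with 0 (83.5 to 168.5). Psmb8 over the same bins was level, at 422.0, 375.4, 416.9 and 414.0 UMIs per 1000 cells.

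**Figure D5:**
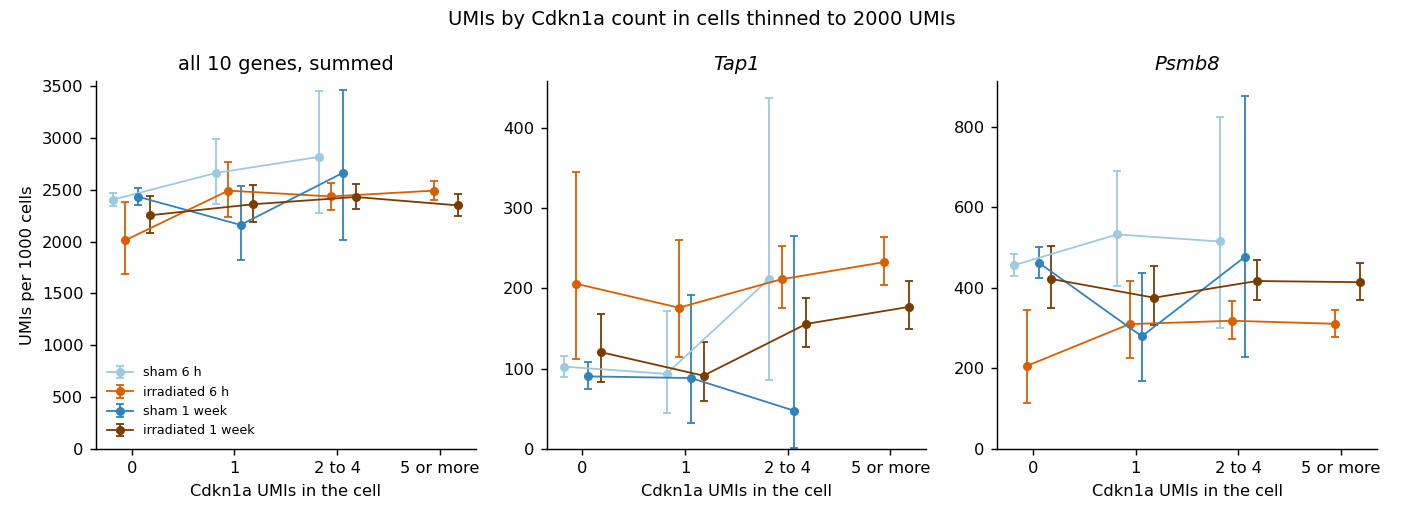
UMIs per 1000 cells (vertical axis) of the 10 genes summed, Tap1 and Psmb8 in cells thinned to 2000 UMIs, by the number of Cdkn1a UMIs in the cell, with exact Poisson 95% intervals; bins of under 20 cells are not drawn. Tap1 in the irradiated library at 1 week runs from 120.6 at 0 UMIs to 177.1 at 5 or more, and Psmb8 in that library stays between 375.4 and 422.0.

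Spearman's rho between the summed 10 genes and each reference gene, across 1369 to 2026 cells of a library at 1 week and 1851 to 2542 at 6 h, was low throughout. The largest values were 0.25 with Isg15 and 0.18 with H2-K1 in the irradiated library at 6 h. All values with Cdkn1a lay between -0.02 and 0.04. Cells of 1 library share its depth and preparation, so these are descriptions. Among 1277 other genes of at least 100 CPM in every library, those whose counts across thinned cells were most like the sum of the 10 genes were Bst2 (tetherin), Ccl12, Lgals3bp, Ly6e and B2m (the class I light chain). Their mean Pearson r over the 4 libraries was 0.20, 0.17, 0.17, 0.15 and 0.14, and all 5 were highest in the irradiated library at 6 h, with Bst2 at 0.38. For all of the 10 genes but Tapbpl, r with the sum of the other 9 was also highest in that library. For Psme2 it was 0.21 there and 0.04, 0.00 and 0.01 in the other libraries.

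Markers of other cells were summed over the compared cells. T cell markers summed to 0.10 to 0.28 CPM in each library, from 1 detected gene of 4, with Cd3e at 0. NK cell markers summed to 15.6, 5.03, 19.4 and 9.56 CPM, from 2 detected genes of 5 in each library (Klrb1c and Klrd1), with Ncr1, Nkg7 and Gzma at 0. Monocyte markers summed to 233.9, 242.5, 196.7 and 221.2 CPM, from 5, 5, 4 and 5 detected genes of 7, with Ly6c2 and Chil3 at 0. Neutrophil markers summed to 154.0, 177.5, 152.9 and 151.5 CPM, from 1 detected gene of 6 in each library (Csf3r). Astrocyte markers were highest in the irradiated library at 6 h, with 149.2, 262.2, 143.9 and 180.4 CPM, and pericyte markers in the sham library at 6 h, with 17.2, 0.28, 0 and 0.39 CPM. Dendritic cell markers, which share Siglech with the microglia list, summed to 1283, 879, 1587 and 1277 CPM with Clec9a and Cd209a at 0. The microglia markers themselves summed to 55677, 45570, 52689 and 54942 CPM, and 2 of 9 (P2ry12 and Fcrls) were past 1.5-fold lower at 6 h. The part of the NK cell, monocyte, neutrophil, astrocyte, pericyte, dendritic cell and microglia markers in the results was not tested.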

How the data were processed

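The 10 genes and the gene lists were chosen with earlier results of these data known. The authors deposited raw UMI counts per gene and barcode for 4 libraries, for which the submitters' processing notes name Cell Ranger 2.0 and the build mm10. How barcodes were called and which gene annotation was used is not given in the sources used here. The files hold 8486 barcodes, and the design text gives another number of cells. Barcodes were kept from 1000 UMIs and 500 genes with at most 10% mitochondrial UMIs (8369). Scrublet (scanpy 1.11.5, expected rate 0.06) marked 45 as doublets (0.538%), far below that rate, so doublets can remain. Cells of all libraries were clustered together (2000 variable genes, 30 components, 15 neighbours, Leiden resolution 1, leidenalg 0.10.2), and clusters were named from markers listed for this work. A microglia-like cluster needed 7 of 9 microglia markers from 50 CPM. A cluster was left unnamed if at least 3 markers of a neural, vascular, ependymal or choroid plexus type were raised 1.5-fold over other cells. It was named for another immune or blood type if at least 3 such markers were raised and outnumbered raised microglia markers. Different clusters hold most cells of the 4 libraries.

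UMIs were summed per library over the compared cells and divided by their total (CPM). A log2 fold carries an exact conditional binomial interval, a level an exact Poisson interval and a share an exact Clopper-Pearson interval, all at 95% and for counting error only. The rule for named genes took all 10 genes, the 3 reference genes, the 3 replaced subunits, up to 4 genes per list with the largest change at 6 h, and the 5 genes most alike across cells. Other genes (Ifng, Nlrc5, Psme2b) were named after their values were seen. Of the matrices' 27998 identifiers, 27645 matched GENCODE vM21 (mm10), the source of gene coordinates; promoter sequences are RefSeq's. On simulated counts with known folds, the interval covered the truth for 95.9% of 9900 genes at 6 h, for 95.8% of 9496 at 1 week and for 95.5% of 9694 between shams, which checks the calculation alone. Alternatives covered the cells used, the scaling (edgeR TMM and median of ratios, on the counts), the thresholds, the control library and the thinning depth.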

Additional observations from a re-analysis of the deposited data

How the results depend on the processing

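No paired analysis was possible because each group is 1 library, and for the same reason no replicate could be left out. The folds of the 10 genes in the 3 comparisons stayed within their counting intervals with all deposited barcodes, with all kept cells of any cluster, under a stricter cell filter, with edgeR's TMM, with median of ratios, with the mean of the cells' own CPM and without the cluster led by Cst7 (30 of 30 folds each). These scalings moved the median of all genes by at most 0.05 on the log2 scale. Exceptions came from the other sham library (4 of 20 folds moved) and from leaving out the cluster led by Rsad2 and Ifit genes (5 of 30), an alternative chosen after seeing the data.

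The count of genes past the fold moved in these cases. At 6 h, 2 were higher over the other sham library (11.9% of measured genes) and 2 at the looser of 2 other fold thresholds. At the same time 1 was lower without the cluster led by Rsad2 and Ifit genes and 2 at that looser threshold. At 1 week 0 were higher over the other sham library (3.82% of measured genes) or at 2-fold, and 2 at the looser threshold. Between the sham libraries, 0 were lower (Erap1 no longer past 1.5-fold) without that cluster, with edgeR's TMM, with median of ratios or at 2-fold. The share of all measured genes was not computed for the other thresholds, scalings or cell sets. Those counts therefore show how the calls shift and do not set the 10 genes apart. The share of cells with a UMI of any of the 10 genes follows depth by construction: at 1500 UMIs it was 82.6%, 81.0%, 82.9% and 82.3%, at 3000 UMIs 97.3%, 96.0%, 96.8% and 96.5%, and without thinning 97.0%, 96.3%, 95.4% and 96.9%. In the irradiated library at 6 h the log2 ratio with Isg15 was 1.18 at 1500 UMIs, 0.92 at 3000 and 0.93 without thinning, and that with H2-K1 was 0.26 at 1500 UMIs. With Cdkn1a at 1500 UMIs the ratio reversed to -0.14 in the sham library at 6 h and changed sign to 0.14 in that at 1 week, where both intervals include 0; the cause was not tested. Depth limits Erap1 most, and cells with several Isg15 UMIs are few at 1 week.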
